A study of Mus musculus with 9 samples.

Results

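The transcripts of 7 transcription factor genes of the embryonic head were followed in RNAseq of E14.5 mouse cranial tissue: the paired-like homeobox genes *Alx1*, *Alx4*, *Prrx1* and *Prrx2*, and the AP-2 genes *Tfap2a*, *Tfap2b* and *Tfap2c*. The genes were taken by name from the 43548 gene identifiers of the expression table, and all 7 had a value in every library. There were 3 groups of 3 libraries, all labelled as mixed strain. The *MCAGF8* cranial vault came from embryos with *Msx2-Cre* and the CAG-driven *Fgf8b* allele at the ROSA26 locus, in which Cre in the surface ectoderm of the head switches on *Fgf8b*. Vault and base tissue of the controls came from embryos that the labels call wildtype and the study's methods describe as lacking Cre. By the breeding described, those controls also inherit the allele, with its stop cassette still in place. Skin had been peeled away before the underlying tissue was collected. Each library held RNA pooled from 3 tissue samples. By the study's methods, the base was taken from the control embryos after their vault had been collected. Which embryos went into which pool is not stated.

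Paired-like homeobox proteins bind DNA through a homeodomain that prefers the core letters TAAT. *Alx1* and *Alx4* act in the neural crest mesenchyme of the frontonasal region and skull vault, and loss of *Alx4* leaves the parietal bones incomplete in mice and humans. *Prrx1* and *Prrx2* mark undifferentiated mesenchyme of the head and limbs, and mice without *Prrx1* lack parts of the skull. AP-2 proteins bind as dimers to GC-rich sites. *Tfap2a* and *Tfap2c* are strongly active in surface ectoderm and the early neural crest, and *Tfap2b* is active in neural crest derivatives including facial mesenchyme. Alx, Prrx and AP-2 genes are all also used outside bone, so a level in bulk tissue does not name the cell that made it.

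*Prrx1* and *Alx4* were higher in both vaults than in the base. None of the 4 homeobox genes was called between the *MCAGF8* and the control vault, the threshold for a call being p under 0.05 before and under 0.1 after Benjamini-Hochberg adjustment. *Tfap2a* was 6.46-fold higher in the *MCAGF8* vault than in the control vault and was the only one of the 7 called in that comparison. All values are FPKM, fragments normalised to transcript length and to the mapped fragments of the library, and differences are on the scale log2(FPKM + 1) unless a fold is named, which is a ratio of mean FPKM.

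The libraries differed in makeup in ways that touch these genes. The summed FPKM of 11 general mesenchyme markers, *Col3a1* and *Col1a1* being the most abundant, was 4700.6 to 5599.3 in the control base, 12426.4 to 12786.4 in the *MCAGF8* vault and 12280.5 to 14008.1 in the control vault. The sum of 15 cartilage markers, led by *Col2a1* and *Col9a3*, was 10104.7 in control base replicate 2 but 1032.3 and 1599.4 in replicates 1 and 3, below every vault library (2019.5 to 5039.7), so cartilage markers set only 1 base library above the vault. The muscle sum of 14 genes was 2157.9 to 13007.8 in the base, 1165.9 to 7154.9 in the control vault and 61.7 to 316 in the *MCAGF8* vault. Correlations of log2 values between libraries of a group ran from 0.904 to 0.946 in the base and from 0.959 to 0.98 in the vaults. *Fgf8* itself was 19.5, 9.43 and 13.03 FPKM in the *MCAGF8* vault and 13.5, 8.25 and 3.01 FPKM in the control vault, ranges that overlapped. In such bulk tissue, fewer cells of a type and less RNA per cell cannot be told apart.

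**Figure D1:**
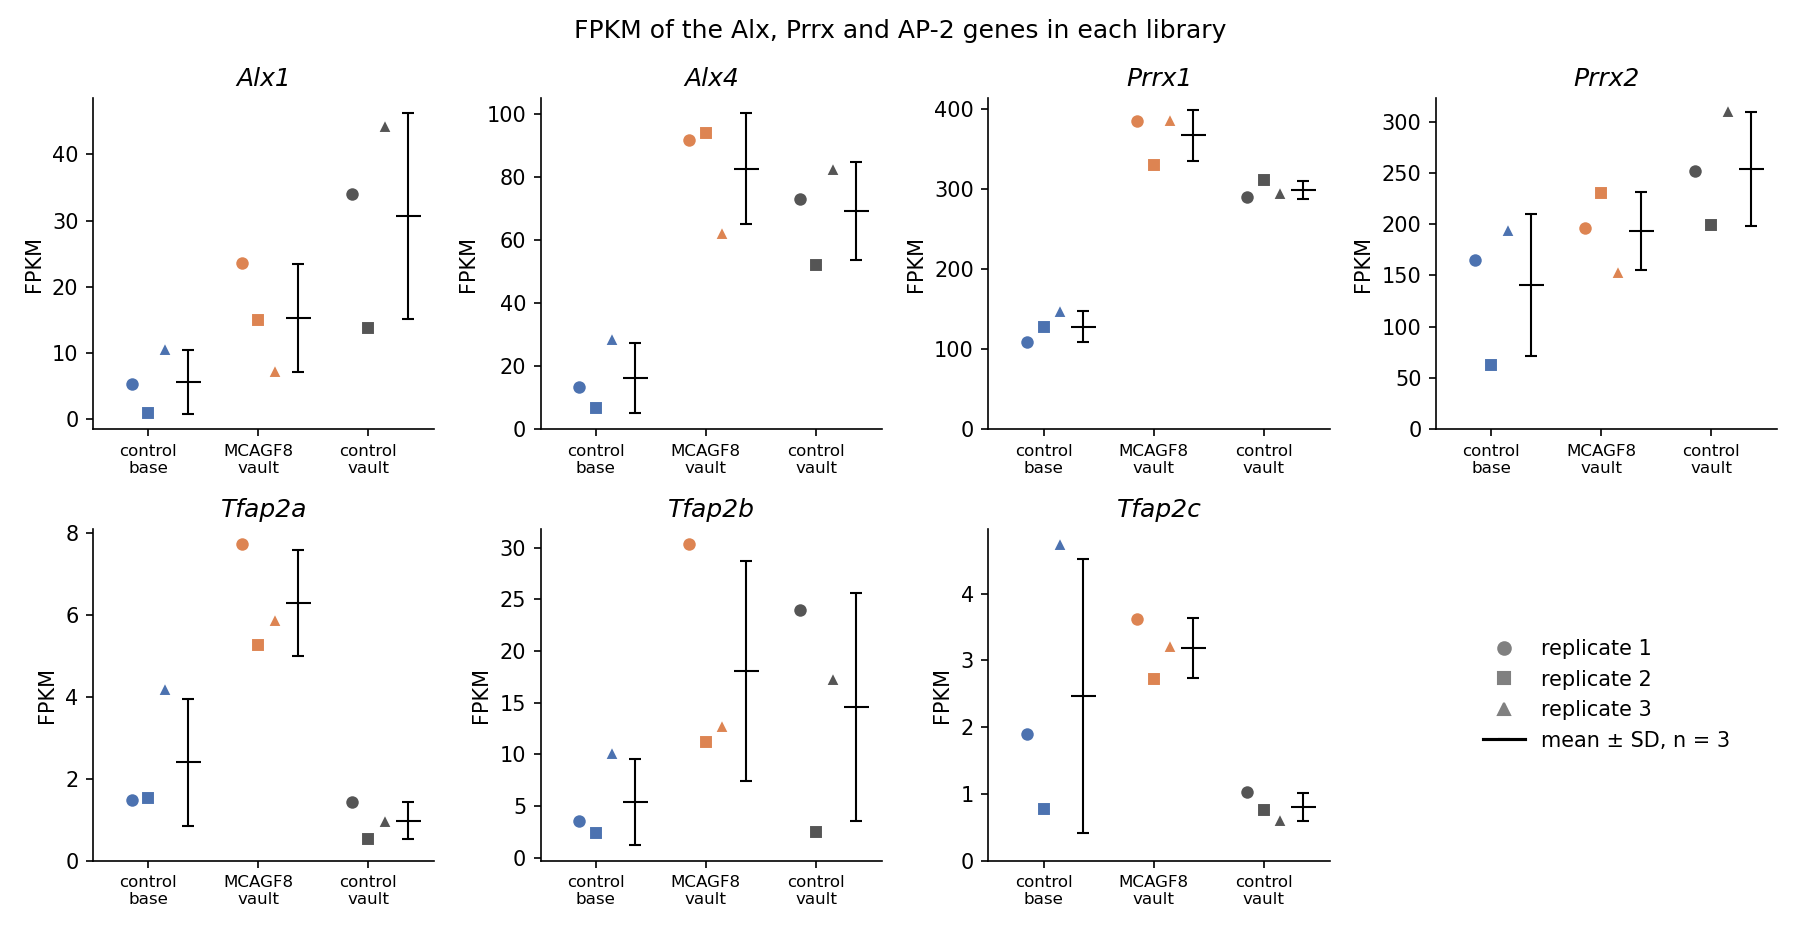
FPKM (y axis, linear, one scale per panel) of each of the 7 genes in the 3 libraries of each group (x axis), with the mean and SD at the right of each group. The 3 control base libraries lie below every vault library for *Alx4* and *Prrx1*, and the 3 *MCAGF8* libraries lie above every control vault library for *Prrx1*, *Tfap2a* and *Tfap2c*.

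*Prrx1* (ENSMUSG00000026586, chromosome 1 from 163245119 to 163313710 on the minus strand in GRCm38, the build of the annotation used for all positions) was the most abundant of the 7 in both vaults. It measured 109, 128 and 149 FPKM in the control base, 385, 331 and 387 FPKM in the *MCAGF8* vault, and 290, 311 and 296 FPKM in the control vault. The 3 groups did not overlap: every base library lay below every control vault library, and every control vault library below every *MCAGF8* library. The means were 128 ± 19.8 FPKM in the base, 368 ± 32.0 FPKM in the *MCAGF8* vault and 299 ± 10.98 FPKM in the control vault (SD, n = 3 each). By its mean, *Prrx1* stood above 98.2% of the 18714 tested genes in the *MCAGF8* vault, 97.3% in the control vault and 92.5% in the base.

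*Alx4* (ENSMUSG00000040310, chromosome 2 from 93642384 to 93681339, plus strand) followed the same division between vault and base with wider spread. It measured 13.4, 6.81 and 28.6 FPKM in the control base, 91.8, 94.1 and 62.4 FPKM in the *MCAGF8* vault, and 73.0, 52.2 and 82.7 FPKM in the control vault. Both vaults lay wholly above the base, and their own ranges overlapped. The gene's span overlaps *Ext2* on the opposite strand, with 0 shared exon bases.

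*Alx1* (ENSMUSG00000036602, chromosome 10 from 102998707 to 103030215, minus strand) was the least abundant of the homeobox genes and the most variable of the 4 within the control base. The base libraries held 5.26, 0.949 and 10.6 FPKM, the *MCAGF8* vault 23.5, 15.02 and 7.24 FPKM, and the control vault 34.0, 13.8 and 44.3 FPKM. Every control vault library lay above every base library, while the *MCAGF8* vault overlapped both. In the base the highest library was 11.2 times the lowest, against 1.36 times for *Prrx1*.

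*Prrx2* (ENSMUSG00000039476, chromosome 2 from 30834972 to 30881251, plus strand) was high in all tissues. The base libraries held 165, 62.5 and 194 FPKM, the *MCAGF8* vault 196, 230 and 154 FPKM, and the control vault 252, 199 and 311 FPKM. The control vault lay above the base without overlap by a narrow margin, 199 against 194 FPKM, and the *MCAGF8* vault overlapped both. *Prrx2* was thus the homeobox gene whose base level stood closest to its vault level, at 141 ± 69.1 FPKM against 254 ± 55.8 FPKM in the control vault (SD, n = 3 each).

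The AP-2 genes were all much lower. *Tfap2a* (ENSMUSG00000021359, chromosome 13 from 40715302 to 40738376, minus strand) measured 1.48, 1.54 and 4.20 FPKM in the control base, 7.74, 5.28 and 5.87 FPKM in the *MCAGF8* vault, and 1.42, 0.528 and 0.973 FPKM in the control vault. The 3 groups did not overlap, with the control vault lowest and the *MCAGF8* vault highest. *Tfap2c* (ENSMUSG00000028640, chromosome 2 from 172549593 to 172558622, plus strand) measured 1.90, 0.766 and 4.75 FPKM in the base, 3.63, 2.72 and 3.21 FPKM in the *MCAGF8* vault, and 1.03, 0.756 and 0.611 FPKM in the control vault. For *Tfap2c* the *MCAGF8* vault lay above the control vault without overlap, and the base spanned both.

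*Tfap2b* (ENSMUSG00000025927, chromosome 1 from 19208914 to 19238576, plus strand) was the most abundant AP-2 gene in every library and the AP-2 gene that varied most within the vaults. It measured 3.56, 2.39 and 10.1 FPKM in the base, 30.3, 11.2 and 12.7 FPKM in the *MCAGF8* vault, and 24.0, 2.48 and 17.3 FPKM in the control vault. All *MCAGF8* libraries lay above all base libraries, and the control vault ran from near the lowest base library to above 2 of the 3 *MCAGF8* libraries. Control vault replicate 2, at 2.48 FPKM, also had the lowest *Alx1*, *Alx4*, *Prrx2* and *Tfap2a* of its group, the highest muscle sum (7154.9) and the lowest sum of 12 osteoblast markers (4046.1 against 6844.9 and 7307.9). Control base replicate 2, the library rich in cartilage transcripts, had the lowest *Alx1*, *Alx4*, *Prrx2*, *Tfap2b* and *Tfap2c* of its group, and the part of these tissue differences in the values of the 7 genes was not tested.

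The order of the members by mean FPKM was *Prrx1*, *Prrx2*, *Alx4* and then the rest in both vaults, and *Prrx2* before *Prrx1* in the base. Neighbours in these orders were often not separated by their spread: *Prrx1* and *Prrx2* overlapped in the base and the control vault (290 to 311 against 199 to 311 FPKM), as did *Alx1* and *Tfap2b* in every group. In the *MCAGF8* vault *Prrx1* (331 to 387 FPKM) lay above *Prrx2* (154 to 230 FPKM), and *Alx4* (62.4 to 94.1 FPKM) lay above *Tfap2b* (11.2 to 30.3 FPKM) and *Alx1* (7.24 to 23.5 FPKM). *Tfap2c* was the lowest in both vaults by mean, at 3.19 ± 0.452 and 0.799 ± 0.214 FPKM, and overlapped *Tfap2a* in the control vault and not in the *MCAGF8* vault.

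Promoter sequence is shown for *Prrx1* and *Tfap2a*, since *Prrx1* was called between vault and base and *Tfap2a* between the vaults. RefSeq promoters on GRCm38.p6, the 250 bases before a transcript start, were given for 4 of the 7 genes (*Prrx1*, *Prrx2*, *Tfap2a* at 2 starts, and *Tfap2b*); *Alx1*, *Alx4* and *Tfap2c* are named only. They were searched on both strands for TAATTA, a palindrome that paired-like homeodomains can bind, and for GCCNNNGGC, the AP-2 palindrome, where N is any base. Neither motif can lie inside the other. TAATTA stood once in the *Prrx1* promoter, 173 bases before the start, and once in 1 of the 2 *Tfap2a* promoters, 32 bases before the start. Of 32851 promoters, 4.84% held TAATTA and 13.73% held GCCNNNGGC. Capitals mark the motif, and each window reads 5′ to 3′ on the gene's own minus strand. Neither window overlaps an annotated exon of the 7 genes, and exons of other genes were not checked.
Prrx1, chr1:163313773-163313868: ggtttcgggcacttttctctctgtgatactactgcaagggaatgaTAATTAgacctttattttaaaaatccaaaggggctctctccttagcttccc
Tfap2a, chr13:40734921-40734997: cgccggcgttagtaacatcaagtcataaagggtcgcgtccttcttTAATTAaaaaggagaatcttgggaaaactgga
GCCNNNGGC stood at 2 places in the *Prrx2* promoter, 101 and 59 bases before the start, and neither motif was in the *Tfap2b* promoter or the other *Tfap2a* promoter. A match says only that these letters are in the window.

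The first comparison set the *MCAGF8* vault against the control vault, and asked whether these factors differed in the vault that lay under *Fgf8b*-expressing ectoderm. *Tfap2a* was 6.46-fold higher in the *MCAGF8* vault, at 6.30 ± 1.28 against 0.9745 ± 0.447 FPKM (SD, n = 3 each), a log2 difference of 1.90 with an SE of 0.33 and an adjusted p of 0.0723 (limma). This was 1 of the 7 genes, where 43 of 18714 tested genes, or 0.230%, were called higher in the *MCAGF8* vault. Leaving out any 1 of the 6 vault libraries ended the call, with adjusted p between 0.145 and 0.338, although the log2 difference stayed between 1.72 and 2.06.

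*Tfap2c* was 3.99-fold higher in the *MCAGF8* vault, at 3.19 ± 0.452 against 0.799 ± 0.214 FPKM (SD, n = 3 each), but missed the threshold. Its log2 difference was 1.22 with a 95% confidence interval of 0.37 to 2.07 and an adjusted p of 0.392 (limma). With the 6 vault libraries fitted alone it was called at an adjusted p of 0.0568. *Tfap2b* differed by 0.57 with an interval of -1.08 to 2.23, and by -0.30 once control vault replicate 2 was left out.

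None of the 4 homeobox genes passed the test between the vaults (limma), and none had an unadjusted p under 0.05. *Prrx1* was 1.23-fold higher in the *MCAGF8* vault with no overlap between the libraries, a log2 difference of 0.29 with an interval of -0.11 to 0.70 and an adjusted p of 0.969 (limma). *Alx4* differed by 0.25 with an interval of -0.69 to 1.20, and *Prrx2* by -0.39 with an interval of -1.27 to 0.49. Without control vault replicate 2 the *Alx4* difference was 0.07, and without *MCAGF8* replicate 3 it was 0.44. *Alx1* had the lowest ratio, 15.3 ± 8.16 against 30.7 ± 15.5 FPKM (SD, n = 3 each), and its log2 difference of -0.95 had an interval of -2.46 to 0.56. It was -1.43 without control vault replicate 2 and -0.53 without *MCAGF8* replicate 3, and that of *Prrx2* was -0.23 without control vault replicate 3. In all, 3 of the 7 genes did not overlap between the vaults (*Prrx1*, *Tfap2a* and *Tfap2c*), where 19.2% of all tested genes did not overlap in either direction. For each of them an exact two-sided permutation test of 3 against 3 libraries gave p = 0.1, the smallest that this design allows. The median log2 difference was 0.29 over the 7 genes and -0.01 over all tested genes.

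**Figure D2:**
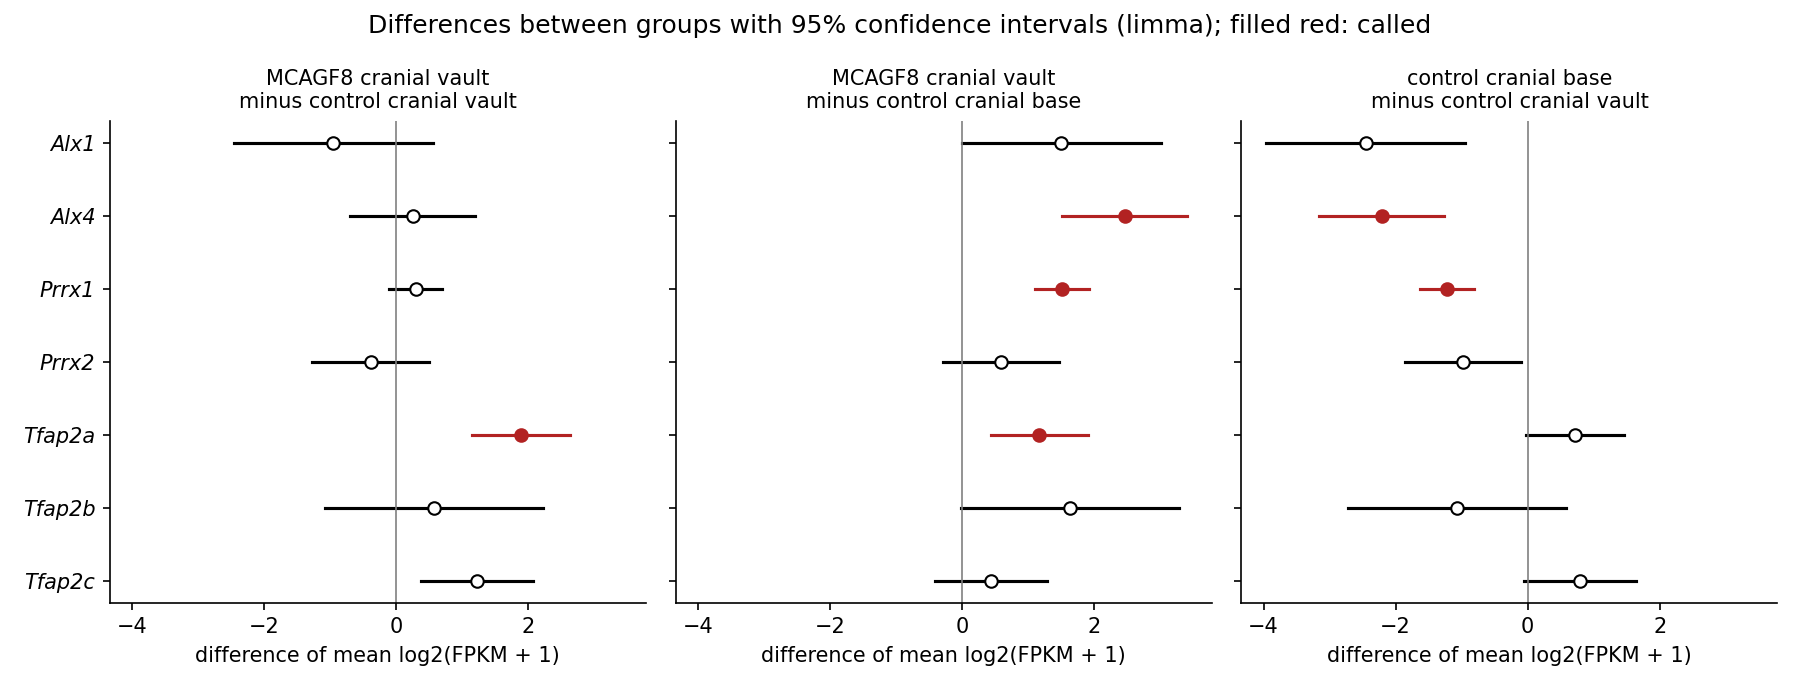
Difference of mean log2(FPKM + 1) (x axis) for each gene (y axis) in the 3 comparisons, with 95% confidence intervals from limma and called genes in filled red. *Tfap2a* is the called gene between the vaults, *Alx4*, *Prrx1* and *Tfap2a* are called between the *MCAGF8* vault and the base, and *Alx4* and *Prrx1* are called between the control tissues.

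Epidermal and melanocyte marker sums were higher in the *MCAGF8* than in the control vault, as *Tfap2a* and *Tfap2c* were. Within a group the libraries did not always follow: control vault replicate 2 had the highest epidermis sum (138) and the lowest *Tfap2a* (0.528 FPKM) of its group. The summed FPKM of 21 epidermis markers was 508, 472 and 1151.1 in the *MCAGF8* vault and 91.3, 138 and 70.4 in the control vault, led by the basal keratin *Krt5*. Of the 21 markers, 18 had a higher mean in the *MCAGF8* vault, 11 of them with no overlap between the vaults, and none was at 0 in all 3 libraries of either vault. The sum of 6 melanocyte markers was 19.9 to 24.0 in the *MCAGF8* vault and 2.86 to 4.75 in the control vault, where *Mlana* was at 0 in all 3 libraries. The control base held 195 to 988 FPKM of epidermis markers and 1.88 to 18.8 FPKM of melanocyte markers. Other marker sums also set the vaults apart without overlap. Those of 10 dermis and hair follicle markers were 1949.4 to 2205.2 in the *MCAGF8* vault and 1389.9 to 1794.9 in the control vault, against 707.8 to 1266.7 in the base. Of these 10 markers, 7 had a higher mean in the *MCAGF8* vault, 2 of them with no overlap between the vaults. Sums of 8 brain progenitor markers were 45.1 to 55.5 in the *MCAGF8* vault and 93.4 to 190.7 in the control vault. The 12 osteoblast markers summed to 2245.5 to 2959.0 in the *MCAGF8* vault and 4046.1 to 7307.9 in the control vault, and the 7 glia and Schwann cell markers to 16.7 to 29.0 and 34.3 to 138. The part of these sums in the vault values of the 7 genes was not tested.

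Set against the epidermis sum, a ratio chosen after the values were seen, *Tfap2a* no longer separated the vaults. It was 15.2, 11.2 and 5.10 FPKM per 1000 FPKM of epidermis markers in the *MCAGF8* vault and 15.6, 3.83 and 13.8 in the control vault. The base held 2.09, 7.89 and 4.25 of *Tfap2a* on this scale, overlapping both vaults but with its lowest library below every vault library. *Tfap2c* was 7.13, 5.77 and 2.79 per 1000 in the *MCAGF8* vault and 11.3, 5.47 and 8.68 in the control vault, again with overlap. In the base *Tfap2c* was 2.67, 3.92 and 4.81 per 1000, below every control vault library. Set against the mesenchyme sum, *Tfap2a* still separated the vaults, at 0.413 to 0.605 per 1000 in the *MCAGF8* vault and 0.0430 to 0.106 in the control vault. The base was at 0.314 to 0.750 on this scale and overlapped the *MCAGF8* vault. *Tfap2c* also still separated the vaults on the mesenchyme scale, at 0.213 to 0.284 per 1000 in the *MCAGF8* and 0.0436 to 0.0769 in the control vault. The base, at 0.156 to 0.848, overlapped the *MCAGF8* vault for *Tfap2c* too. The part of epidermal or pigment cells in the *Tfap2a* and *Tfap2c* difference was not tested.

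The shares of the AP-2 genes in their summed FPKM were also computed, without a test. *Tfap2b* made up 72.7%, 58.3% and 58.3% of the summed FPKM of the 3 AP-2 genes in the *MCAGF8* vault, 90.7%, 65.9% and 91.6% in the control vault, and 51.3%, 50.9% and 53.1% in the base. *Tfap2a* made up 18.6% to 27.5% in the *MCAGF8* vault and 5.15% to 14.1% in the control vault, without overlap, and 21.4% to 32.8% in the base, which overlapped the *MCAGF8* vault. *Tfap2c* made up 8.70% to 14.8% in the *MCAGF8* vault, 3.23% to 20.1% in the control vault and 16.3% to 27.4% in the base, so the vaults overlapped for *Tfap2b* and *Tfap2c*. The *Alx4* share of the *Alx1* and *Alx4* sum was 79.6%, 86.2% and 89.6% in the *MCAGF8* vault and 68.2%, 79.1% and 65.1% in the control vault. The base libraries held 71.7%, 87.8% and 72.9%, spanning both vaults. The vaults did not overlap, but by a gap of only 79.6% against 79.1%. The summed Alx level itself was close, at 115, 109 and 69.7 FPKM in the *MCAGF8* vault and 107, 66.0 and 127 FPKM in the control vault. The Prrx sum likewise stood at 561 ± 20.4 and 553 ± 49.1 FPKM (SD, n = 3 each), with a *Prrx1* share of 58.9% to 71.6% and 48.8% to 61.0%, which overlapped.

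**Figure D3:**
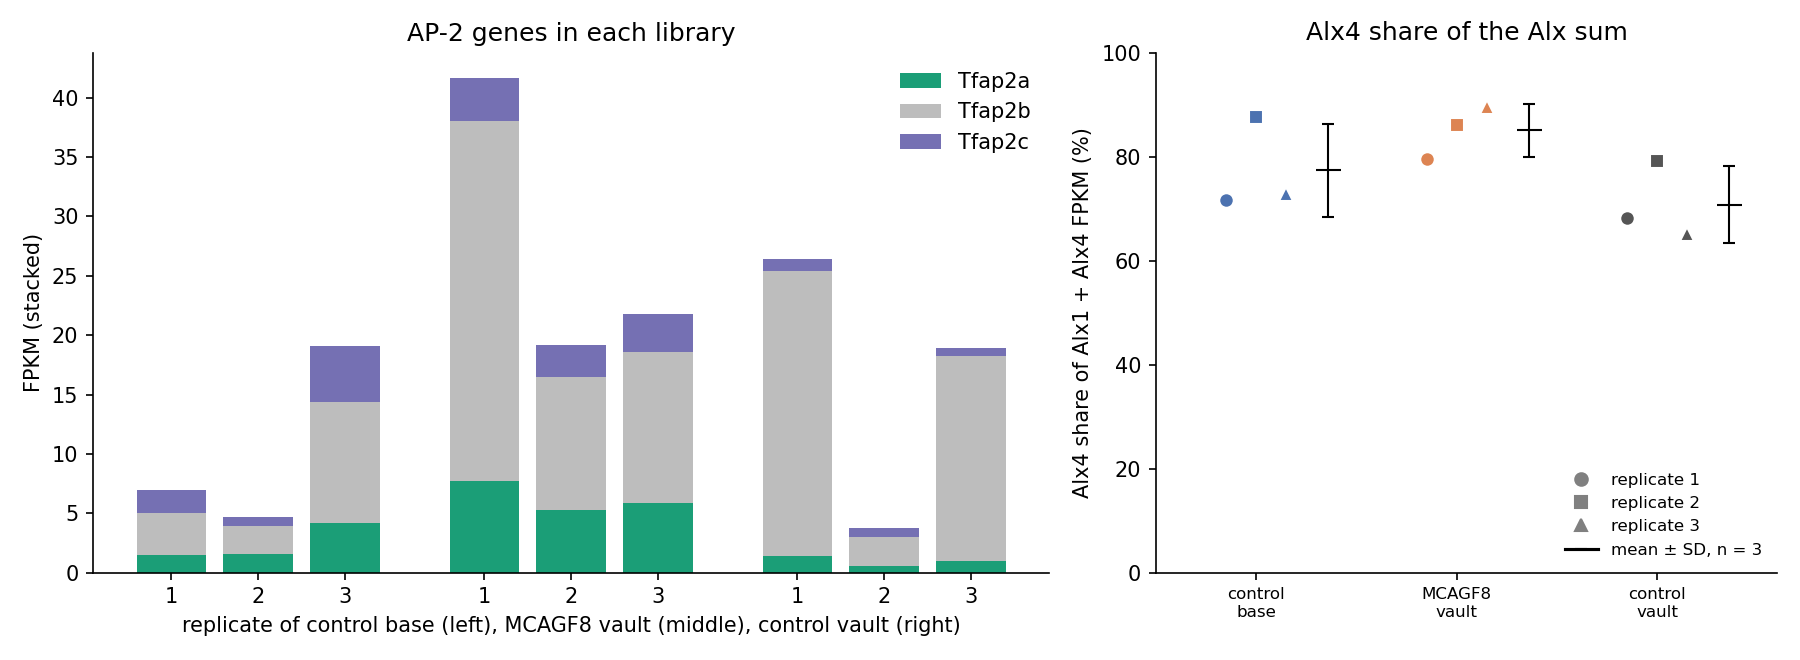
Left, FPKM of *Tfap2a*, *Tfap2b* and *Tfap2c* stacked in each of the 9 libraries (x axis, replicate within group). Right, the share of *Alx4* in the summed *Alx1* and *Alx4* FPKM (y axis, percent) for each library, with mean and SD; the 3 *MCAGF8* libraries run from 79.6% to 89.6% and the 3 control vault libraries from 65.1% to 79.1%.

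The second comparison set the *MCAGF8* vault against the control base, which the study took as a reference for normal cartilage. Here 3 of the 7 genes were called, all higher in the *MCAGF8* vault, where 2.98% of all tested genes were called in that direction. *Prrx1* was 2.86-fold higher, a log2 difference of 1.52 with an SE of 0.18 and an adjusted p of 0.0041 (limma). *Alx4* was 5.09-fold higher, a log2 difference of 2.47 with an SE of 0.42 and an adjusted p of 0.0123 (limma). Both were called under all 19 alternative fits, with adjusted p at most 0.0328 and 0.081. *Tfap2a* was 2.62-fold higher, with a log2 difference of 1.17 and an adjusted p of 0.0803 (limma), and was called in 5 of the 18 alternatives that could fit it. That call was lost without control base replicate 1 and without any 1 of the 6 vault libraries (adjusted p 0.101 to 0.277).

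The other members had positive differences that did not pass the test. The log2 differences were 1.504 for *Alx1* (interval -0.01 to 3.01), 1.64 for *Tfap2b* (-0.01 to 3.29), 0.59 for *Prrx2* (-0.29 to 1.47) and 0.43 for *Tfap2c* (-0.41 to 1.28). Without control base replicate 2 the differences were 0.79 for *Alx1*, 0.09 for *Prrx2* and 0.03 for *Tfap2c*. Without control base replicate 3 they were higher for *Prrx2* (0.90) and *Tfap2c* (0.88). *Prrx1*, *Alx4*, *Tfap2a* and *Tfap2b* did not overlap between the *MCAGF8* vault and the base, 4 of 7 genes, where 21.9% of all tested genes did not. The median log2 difference was 1.504 over the members and -0.07 over all tested genes.

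The third comparison set the 2 normal tissues side by side, the control base against the control vault. By the study's methods both were taken from the control embryos, and the fit did not pair their pools. *Prrx1* was 2.33-fold and *Alx4* 4.27-fold lower in the base, 2 of the 7 genes, where 1.21% of all tested genes were called lower there. The log2 difference was -1.22 with an SE of 0.18 and an adjusted p of 0.0158 for *Prrx1*, and -2.21 with an SE of 0.42 and an adjusted p of 0.0418 for *Alx4* (limma). *Prrx1* was called under all 19 alternative fits. The call of *Alx4* was lost without control vault replicate 1 (adjusted p 0.14) or replicate 3 (0.167), in the fit of the 6 control libraries alone and in the fit without moderation.

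*Alx1* had the lowest base level relative to the control vault of the 7, a 5.47-fold lower mean, but its spread left it outside the threshold. Its log2 difference was -2.46 with an interval of -3.97 to -0.95 and an adjusted p of 0.121 (limma), and without control base replicate 3 it was called at -3.03 with an adjusted p of 0.0988. *Prrx2* differed by -0.98 with an interval of -1.86 to -0.10 and an adjusted p of 0.317 (limma), and by -0.48 without control base replicate 2. The AP-2 genes divided: *Tfap2a* (0.72, interval -0.02 to 1.46) and *Tfap2c* (0.79, -0.06 to 1.63) had higher values in the base, and *Tfap2b* (-1.07, -2.72 to 0.58) a lower one. Without control base replicate 2, *Tfap2c* was called, at a log2 difference of 1.19 and an adjusted p of 0.0772 (limma). The libraries of 5 of the 7 genes did not overlap, *Alx1*, *Alx4*, *Prrx1* and *Prrx2* being lower in the base and *Tfap2a* higher, where 15.5% of all tested genes did not overlap. Each pair of the 3 comparisons shares 3 libraries, so they are not independent of each other.

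Relative to the mesenchyme markers, *Prrx1* no longer set the base apart from the vaults. *Prrx1* was 23.2, 26.0 and 26.5 FPKM per 1000 FPKM of mesenchyme markers in the base, 30.1, 25.9 and 31.1 in the *MCAGF8* vault, and 21.6, 25.3 and 21.1 in the control vault, so the base overlapped both vaults. The vaults themselves did not overlap for *Prrx1*, by a gap of only 25.9 against 25.3. *Alx4* was 2.84, 1.39 and 5.10 per 1000 in the base, 7.18, 7.36 and 5.02 in the *MCAGF8* vault and 5.44, 4.25 and 5.91 in the control vault, with base replicate 3 inside the vault range and the other base libraries below it. *Prrx2* was 35.2 and 34.7 per 1000 in base replicates 1 and 3, above every vault library (12.4 to 22.2), and 12.7 in base replicate 2. On this scale 2 of the 3 base libraries thus lay above the vaults for *Prrx2*, whereas on the FPKM scale all 3 lay below the control vault. These ratios were chosen after the values were seen, and the part of the mesenchyme content in these differences was not tested.

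**Figure D4:**
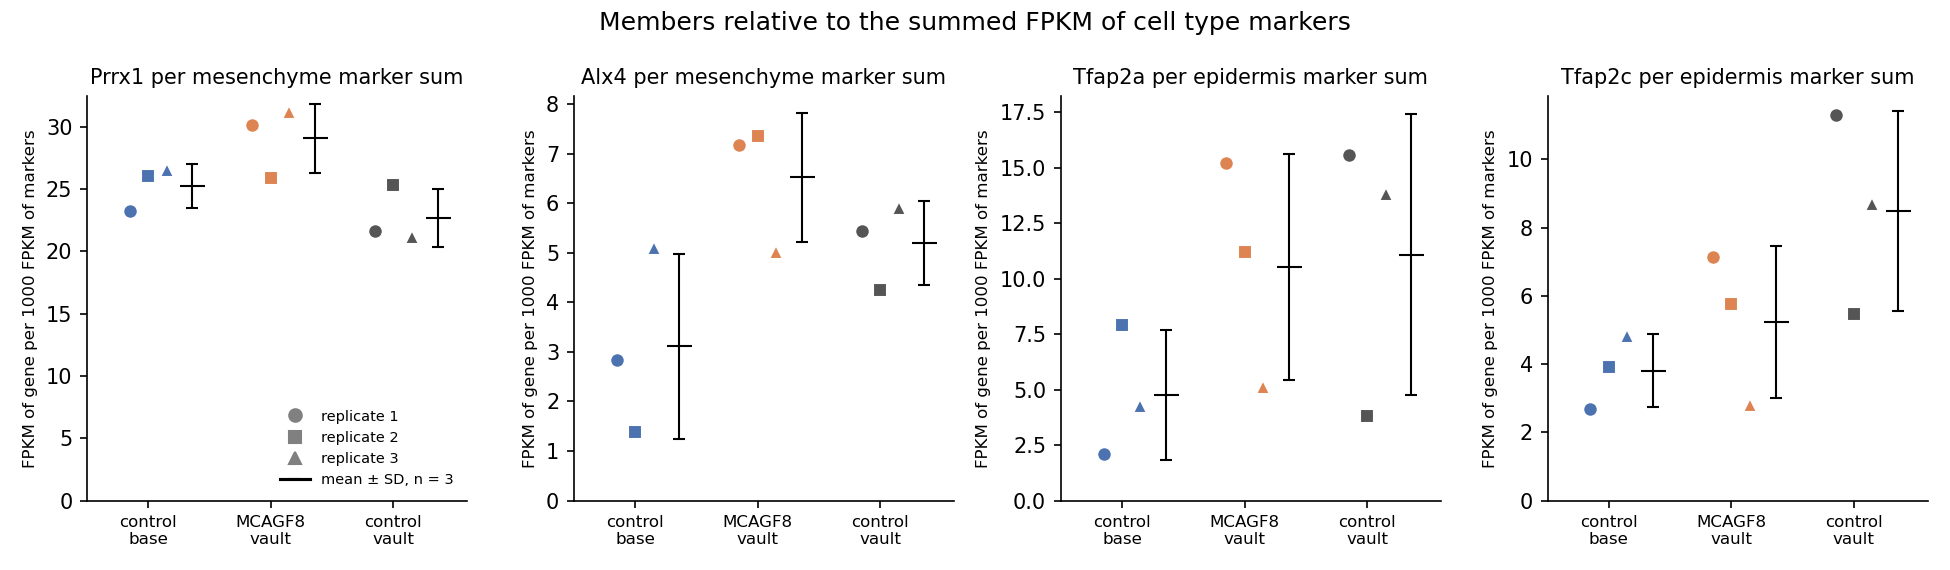
Level of *Prrx1* and *Alx4* per 1000 FPKM of mesenchyme markers and of *Tfap2a* and *Tfap2c* per 1000 FPKM of epidermis markers (y axis) in each library by group, with mean and SD. *Prrx1* runs from 21.1 to 31.1 over the 9 libraries, and the *MCAGF8* and control vault libraries overlap for *Alx4*, *Tfap2a* and *Tfap2c*, but not for *Prrx1*.

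Other genes of these families were read from lists. Of 24 other paired-like genes, 14 were expressed enough to be tested, and between the vaults limma called none (4 had an unadjusted p under 0.05, as 6.34% of all tested genes did), with a median log2 difference of -0.47. Their extremes were *Shox2*, a limb and palate factor (8.50 ± 2.74 against 4.71 ± 2.69 FPKM), and *Pax3*, a neural crest factor (1.51 ± 0.770 against 0.776 ± 0.840), with the highest differences, and *Otx2*, a forebrain factor (0.292 ± 0.387 against 4.31 ± 2.99), and *Pitx3*, a dopamine neuron and lens factor (1.99 ± 1.52 against 9.08 ± 6.79), with the lowest (*MCAGF8* against control vault, SD, n = 3 each). Against the base, none was called higher in the *MCAGF8* vault, and those called lower, as 5.41% of all tested genes were, included the autonomic neuron factor *Phox2a* (0.103 against 9.60 FPKM) and the oral and hindlimb factor *Pitx1* (0.218 against 12.7 FPKM). *Phox2a* was also called higher in the base than in the control vault, the opposite direction to *Prrx1* and *Alx4*.

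Of 7 AP-2 relatives and partners, 5 were tested and limma called none between the vaults. An unadjusted p under 0.05 was found for 1, as for 6.34% of all tested genes. The partner *Kctd1*, which represses AP-2 activity, had the highest difference (17.1 ± 4.07 FPKM in the *MCAGF8* and 9.79 ± 1.71 in the control vault, log2 difference 0.73, adjusted p 0.694 by limma), followed by the coactivator *Cited2* (0.37). The lowest were *Cited1* (-0.38) and *Kctd15* (-0.35). *Cited2* was called higher in the *MCAGF8* vault than in the base, as 2.98% of all tested genes were, at 61.4 ± 16.1 against 29.4 ± 3.38 FPKM.

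Genes known to respond to AP-2 were mixed. Of 12, 11 were tested. Between the vaults 1 was called, where 0.230% of all tested genes were called higher in the *MCAGF8* vault. An unadjusted p under 0.05 (limma) was found for 5, as for 6.34% of all tested genes. The called gene was *Krt5*, a keratin of the basal epidermis that the epidermis list also holds. It stood at 180 ± 62.5 FPKM in the *MCAGF8* and 12.03 ± 14.97 FPKM in the control vault (log2 difference 4.46, adjusted p 0.0925 by limma). The median difference over the 11 was 0.41. Against the base, *Erbb3*, *Cdkn1a* and *Krt8* were called lower in the *MCAGF8* vault, as 5.41% of all tested genes were. Their log2 differences were -2.13, -1.86 and -3.65.

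Cranial mesenchyme factors gave the widest setting for the homeobox genes. Of 23 tested, limma called none between the vaults and 5 had an unadjusted p under 0.05 (6.34% of all tested genes), with a median log2 difference of 0.30. *Twist2* (109 ± 11.5 against 35.0 ± 5.57 FPKM, adjusted p 0.11) and *Sox9* (54.1 ± 12.1 against 23.0 ± 1.63 FPKM, adjusted p 0.684) had the highest differences, and *Barx1* (-1.19) and *Dlx5* (24.3 against 53.8 FPKM, adjusted p 0.254) the lowest (limma). *Twist2* and *Sox9* did not overlap between the vaults, with unadjusted p of 0.000724 and 0.0337 (limma). The study, which listed significant genes at p under 0.05, reported both as upregulated, and *Sox9* also by in situ hybridization at an earlier stage. Between the *MCAGF8* vault and the base, 10 were called higher (*Msx2*, *Lmx1b*, *Zic1*, *Msx1*, *En1*, *Twist2*, *Tbx15*, *Twist1*, *Snai2* and *Snai1*) and 2 lower (*Barx1* and *Foxf2*), where 2.98% and 5.41% of all tested genes were. Between the control tissues, *Msx2*, *Tbx15*, *Zic1*, *Lmx1b* and *En1* were called lower in the base, as *Prrx1* and *Alx4* were, and *Foxf2* higher, where 1.21% and 1.85% of all tested genes were.

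Genes whose levels over the 9 libraries were most like those of each member were taken from 12934 genes with a mean of at least 5 FPKM, by Pearson r of log2(FPKM + 1). The points include the group differences and share libraries, so r is a description. *Prrx1* was most like *Disp1* (r = 0.988), *Lmx1b* (0.986) and the mesenchyme collagen *Col3a1* (0.986). *Lmx1b* ran from 0.783 to 2.59 FPKM in the base and from 23.1 to 37.4 FPKM in the vaults, a wider division than that of *Prrx1*. *Alx4* was most like *Gstt1* (0.984), *Prcp* (0.975) and *Zcchc24* (0.975). *Alx1* was most like *Tmem51* (0.952) and *Entpd5* (0.951). *Prrx2* was most like *Tmem200b* (0.983), *St6galnac6* (0.974) and *Isoc2a* (0.972).

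The AP-2 genes had other partners. *Tfap2a* was most like *Pex11a* (0.953), *Slc25a28* (0.922) and *St8sia2* (0.912), a sialyltransferase of polysialic acid that measured 26.8 to 30.9 FPKM in the *MCAGF8* vault, 8.78 to 11.3 FPKM in the control vault and 10.9 to 17.6 FPKM in the base. *Tfap2c* was most like *Kcnip1* (0.974), *Abtb1* (0.948) and *Stau2* (0.93), and *Kcnip1* measured 8.36 to 9.87 FPKM in the *MCAGF8* vault against 1.73 to 2.66 FPKM in the control vault, with 2.54 to 12.5 FPKM in the base. *Tfap2b* had the least close neighbours, *Gng8* (0.904), *Rnf182* (0.902) and *Ndrg3* (0.877).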

How the data were processed

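RNAseq was read from 9 libraries of E14.5 mouse cranial tissue, 3 per group, each a pool of RNA from 3 samples. The authors made TruSeq stranded libraries, mapped single-end reads with gSNAP and used Cufflinks to obtain expression. The deposited table gives FPKM by Ensembl identifier. Program versions, genome build, annotation and use of strand in counting were not given in the sources used here. Without strand, reads of antisense partners cannot be told apart, and 7.8% of the exon bases of *Tfap2a* lie opposite *Gm26688*, listed at no more than 0.535 FPKM, and 5.4% and 1.5% opposite *Gm47061* and *Gm47067*, whose levels were not analysed here.

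Rows repeating an identifier were summed and genes with placeholder cells (17 cells in 9 genes) were left out, neither of which touched a member. limma 3.58.1 in R 4.3.3 was fitted over all 9 libraries on log2(FPKM + 1), for 18714 genes whose mean FPKM reached 0.5. FPKM give no read depth, so precision rests on the spread between pools. Each SD is of 3 pools, whereas the limma SE and p-values used 1 spread per gene over all 9 libraries, moderated by that of other genes. The uneven base thus also entered the test between the vaults. The members, lists, markers and tests were chosen with earlier results of these data known. Named genes were the members, the 3 genes most like each, and from each list the called genes or, with none called, the 2 highest and 2 lowest between the vaults. Of the genes this rule names, 2 are not reported here. The fit was tested on simulated data. Alternatives covered pseudocounts of 0.1 and 0.01, filters, scaling, libraries, blocking, moderation and thresholds.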

Additional observations from a re-analysis of the deposited data

How the results depend on the processing

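Of 393 alternative values of the log2 differences of the 7 genes over the 3 comparisons, 363 kept their direction and their side of the threshold, 26 lost a call, 3 gained one and 1 changed direction: *Tfap2b* between the vaults was -0.30 without control vault replicate 2, and up to 1.12 without the other single libraries. Between the vaults the 1 called gene, *Tfap2a*, was lost (0 called) with no filter, with the replicate block, in the linear model without moderation and at an adjusted p under 0.05, could not be fitted at a mean FPKM of at least 5 (0 called), and 0 to 1 were called when single libraries were left out. *Tfap2c* joined it in the fit of the 6 libraries alone and at an unadjusted p under 0.05 (2 called). Between the *MCAGF8* vault and the base 2 to 3 were called without single libraries, and 2 with the replicate block. Between the control tissues 1 was called in the fit of the 6 libraries alone and in the linear model without moderation, 4 at an unadjusted p under 0.05, and 1 to 3 without single libraries. Calls among all genes moved further. Between the vaults 113 became 191 and 192 with pseudocounts of 0.1 and 0.01, 66 with no filter, 71 with a minimum mean FPKM of 5, 243 in the 6 libraries, 19 with the replicate block, 0 without moderation, 1186 and 35 at the other thresholds, and 11 to 275 without single libraries. Against the base, 1571 became 834 at the higher filter, 891 in the 6 libraries, 918 with the replicate block, 869 without moderation, 3675 and 941 at the other thresholds, and 572 to 4589 without single libraries. Between the control tissues, 573 became 291, 140, 234, 257, 2396, 255 and 131 to 1354 in the same order. The cause was not tested. Same-numbered libraries did not deviate together (correlations -0.549 to 0.37, and at most 2 of 6 libraries closest to their own number in any pair of groups). With 3 libraries per group and uneven tissue content, this cannot decide whether the numbers pair the samples. Rescaling to a sum of 1000000 shifted the median of all genes by 0.14 between the vaults and 0.18 between the *MCAGF8* vault and the base, and quantile normalization by 0.15 and, between the control tissues, -0.11. Read depth is unknown, and values near 1 FPKM, as for *Tfap2a* and *Tfap2c* in the control vault, are the least precise.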
